A study of Homo sapiens with 24 samples.

Results

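The insulin-like growth factor (IGF) binding proteins and IGF receptors are the 9 genes IGFBP1 to IGFBP7, IGF1R and IGF2R, taken by symbol from the 60675 Ensembl genes counted in the deposited files. IGFBP5 was chosen by its measured fall in MDA-MB-436 cells, so its values in that line are described and carry no test, and the other 8 genes were taken by family. RNA was sequenced from a pair of human triple-negative breast cancer lines, MDA-MB-436 and MDA-MB-231, as 24 libraries in 8 groups of 3. In both lines, cells expressing MDM2 shRNA were set against cells expressing a non-targeting shRNA, and cells given YX-2-30, a PROTAC (a molecule that brings a protein to the degradation machinery) directed at MDM2, were set against cells given DMSO. Every group shared the same serum-containing DMEM medium. MDM2 is a ubiquitin ligase, and the series asks what its loss does to gene expression. The labels give neither the dose and duration of YX-2-30 nor the hairpin sequences, and they do not say whether the lines expressing an shRNA were single clones. Nor do they tell whether replicates were cultured separately, so p-values measure only the spread between these libraries.

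IGF1 and IGF2 act through IGF1R, a receptor tyrosine kinase that passes the signal to adaptors such as IRS1 and IRS2 and on to PI3K and AKT. The secreted proteins IGFBP1 to IGFBP6 hold IGFs with high affinity and can keep them from the receptor or carry them to it, while IGFBP7 is a relative that binds IGFs weakly. IGF2R, the cation-independent mannose 6-phosphate receptor, has no kinase: it takes IGF2 to lysosomes for degradation and sorts lysosomal enzymes. Proteases such as PAPPA, which cuts IGFBP4 and IGFBP5, free the bound ligand, and the stanniocalcins STC1 and STC2 inhibit PAPPA. In the mouse mammary gland IGFBP5 is known for its rise during involution, when milk-producing cells die, and MDM2 has been described as a ligase for the IGF1R protein, with beta-arrestins as adaptors.

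Libraries held 33.4 M to 174.7 M counts (median 64.0 M), with the shallowest being MDA-MB-436 PROTAC replicate 3. Levels are given as CPM, the usual counts per unit of library size, with library sizes scaled by the trimmed mean of M-values (TMM). MDM2 RNA was not called lower in any of the 4 comparisons: it had 24.8, 23.8 and 30.9 CPM in MDA-MB-231 libraries labelled MDM2 shRNA, against 20.0, 22.9 and 11.4 CPM with non-targeting shRNA, and 14.7, 28.0 and 26.8 CPM in MDA-MB-436 libraries labelled MDM2 shRNA, against 21.5, 29.9 and 24.3 CPM with non-targeting shRNA. With PROTAC it had 22.8, 25.5 and 20.6 CPM in MDA-MB-436, against 40.0, 29.4 and 35.5 CPM with DMSO, a difference of -0.61 ± 0.22 log2 units that missed the threshold (edgeR adjusted p = 0.057) but passed it with DESeq2 (0.024), a filter of 1 CPM (0.048) or the 6 libraries alone (0.019), and 20.4, 23.4 and 24.1 CPM in MDA-MB-231, against 17.0, 24.4 and 15.2 CPM with DMSO. The label MDM2 shRNA was thus not borne out by MDM2 RNA. In MDA-MB-231 every library so labelled lay above every control library (0.55 ± 0.24 log2 units, edgeR adjusted p = 0.14, and 0.29 without non-targeting replicate 3), and in MDA-MB-436 the groups overlapped (-0.11 ± 0.22, 0.78). MDM2 shRNA is therefore a label in all that follows, and each direction given for it is that of the libraries so labelled. RNA does not report on degradation of the MDM2 protein by the PROTAC. The epithelial label was only partly met: KRT8 and KRT18 were abundant (means of 257.6 to 577 CPM and 217 to 443 CPM), CDH1 averaged at most 0.489 CPM in any group, and the luminal marker ESR1 at most 0.225 CPM. The sum of 4 mesenchymal markers was 3187 to 3458 CPM in MDA-MB-231 MDM2 shRNA libraries against 5002 to 6556 CPM in their controls, and 3143 to 3424 CPM with PROTAC against 4980 to 5082 CPM with DMSO. VIM fell with both agents there, while FN1 rose. In MDA-MB-436 the same sum was 868 to 887 CPM with MDM2 shRNA against 1022 to 1162 CPM with non-targeting shRNA, and 760 to 905 CPM with PROTAC against 1184 to 1241 CPM with DMSO, with VIM and CDH2 called lower in both. The sum of 6 epithelial markers was 535 to 598 CPM in MDA-MB-436 MDM2 shRNA libraries against 974.7 to 1149 CPM with non-targeting shRNA, and 448 to 575 CPM with PROTAC against 838 to 894 CPM with DMSO. These falls were those of KRT8 and KRT18, since EPCAM and KRT7 rose with both agents and CDH1 and KRT19 with MDM2 shRNA (median changes of the 6 genes of 1.04 and -0.53 log2 units). Fibroblast markers (7 genes) summed to 35.5 to 40.8 CPM in treated MDA-MB-231 libraries and 18.8 to 23.1 CPM in control ones, carried by COL1A1 and PDGFRB, with DCN at 0 counts in all libraries; the sums of endothelial and leukocyte markers stayed at or under 14.6 CPM, with CD3E at 4 counts or fewer in every library. These sums moved with the treatments, and their part in the changes of the IGF genes was not tested.

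The lines carried different sets of binding proteins. Levels of different genes are compared per kilobase of merged exon (CPM per kb). In MDA-MB-231 IGFBP4 led by far, with 743.7 to 766 CPM per kb in the treated groups and 1222 to 1247 CPM per kb in the control groups, followed by IGFBP7 with 138 to 149 CPM per kb in treated and 214 to 219.5 CPM per kb in control groups. IGFBP4 made up 77.8% of the summed level of the 7 binding proteins with MDM2 shRNA and 80.9% with non-targeting shRNA, and 78.4% with PROTAC and 80.3% with DMSO. In MDA-MB-436 IGFBP6 led, with 36.5 and 33.5 CPM per kb in MDM2 shRNA and PROTAC libraries and 50.1 and 43.3 CPM per kb in non-targeting and DMSO libraries, which is 73.1 to 75.4% of the sum in the 4 groups. IGFBP2 and IGFBP4 followed, with 9.46 to 11.6% and 8.72 to 10.6% of the sum. The summed level was 984 and 948 CPM per kb in MDA-MB-231 with MDM2 shRNA and PROTAC, against 1511 and 1553 CPM per kb with their controls. In MDA-MB-436 it was 49.2 and 44.5 CPM per kb with MDM2 shRNA and PROTAC, against 67.2 and 59.2 CPM per kb.

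**Figure D1:**
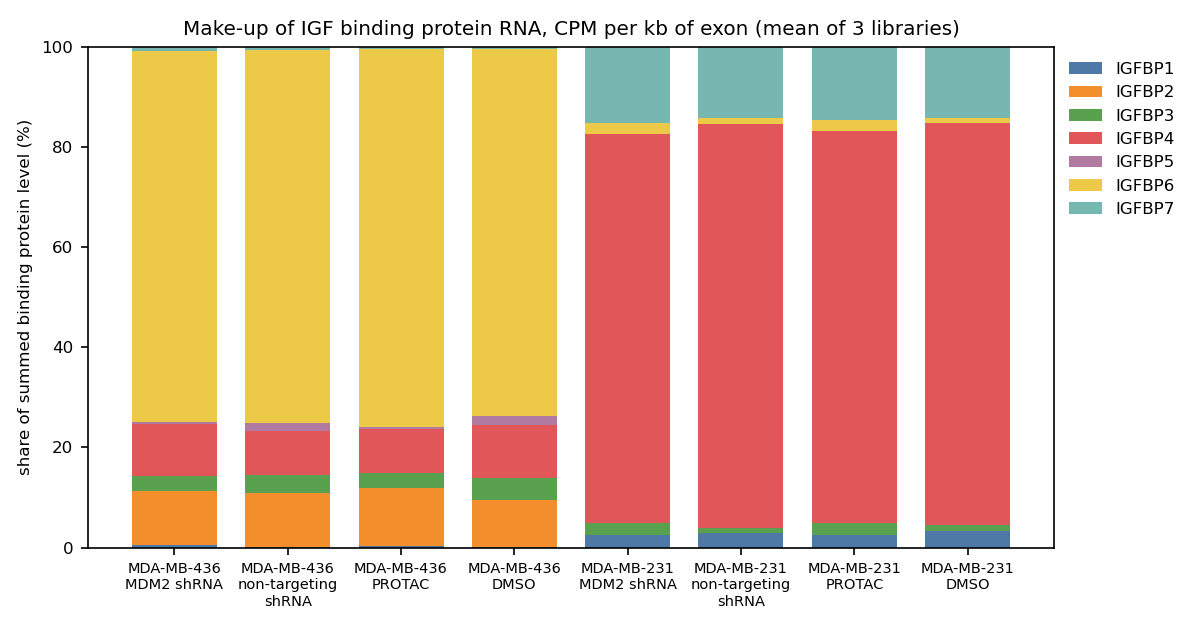
Share of each of the 7 binding proteins in their summed level (%, from group means of CPM per kilobase of merged exon, n = 3 libraries) in the 8 groups, with MDA-MB-436 left of MDA-MB-231 and each treated group left of its control. IGFBP6 fills 73.1 to 75.4% of the MDA-MB-436 columns and IGFBP4 77.8 to 80.9% of the MDA-MB-231 columns.

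The order of the 9 genes kept its upper end within each line, and its lower end in MDA-MB-231 alone. In every MDA-MB-231 group IGFBP4 led, IGFBP7 followed, IGFBP1, IGFBP3, IGFBP6 and IGF2R held the next places, and IGF1R, IGFBP2 and IGFBP5 were last. IGFBP1, IGFBP3 and IGFBP6 were neighbours with overlapping libraries in both treated groups, at 23.0 to 25.2, 22.3 to 22.7 and 21.0 to 21.3 CPM per kb. In every MDA-MB-436 group IGFBP6 led and IGF2R followed (15.8 and 15.5 CPM per kb with MDM2 shRNA and PROTAC, 17.7 and 20.6 CPM per kb in the controls). IGFBP2 and IGFBP4 came next, and their libraries overlapped in all groups but non-targeting shRNA. IGF1R held place 5 in all 4 MDA-MB-436 groups, overlapping its upper neighbour in the DMSO and PROTAC groups, and IGFBP3 place 6. IGFBP5 held place 7 in both MDA-MB-436 controls, at 1.19 and 1.14 CPM per kb. It came behind IGFBP7 in both treated groups, at 0.204 and 0.154 CPM per kb, and their libraries overlapped with PROTAC. With MDM2 shRNA it was last, behind IGFBP1, with overlapping libraries.

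**Figure D2:**
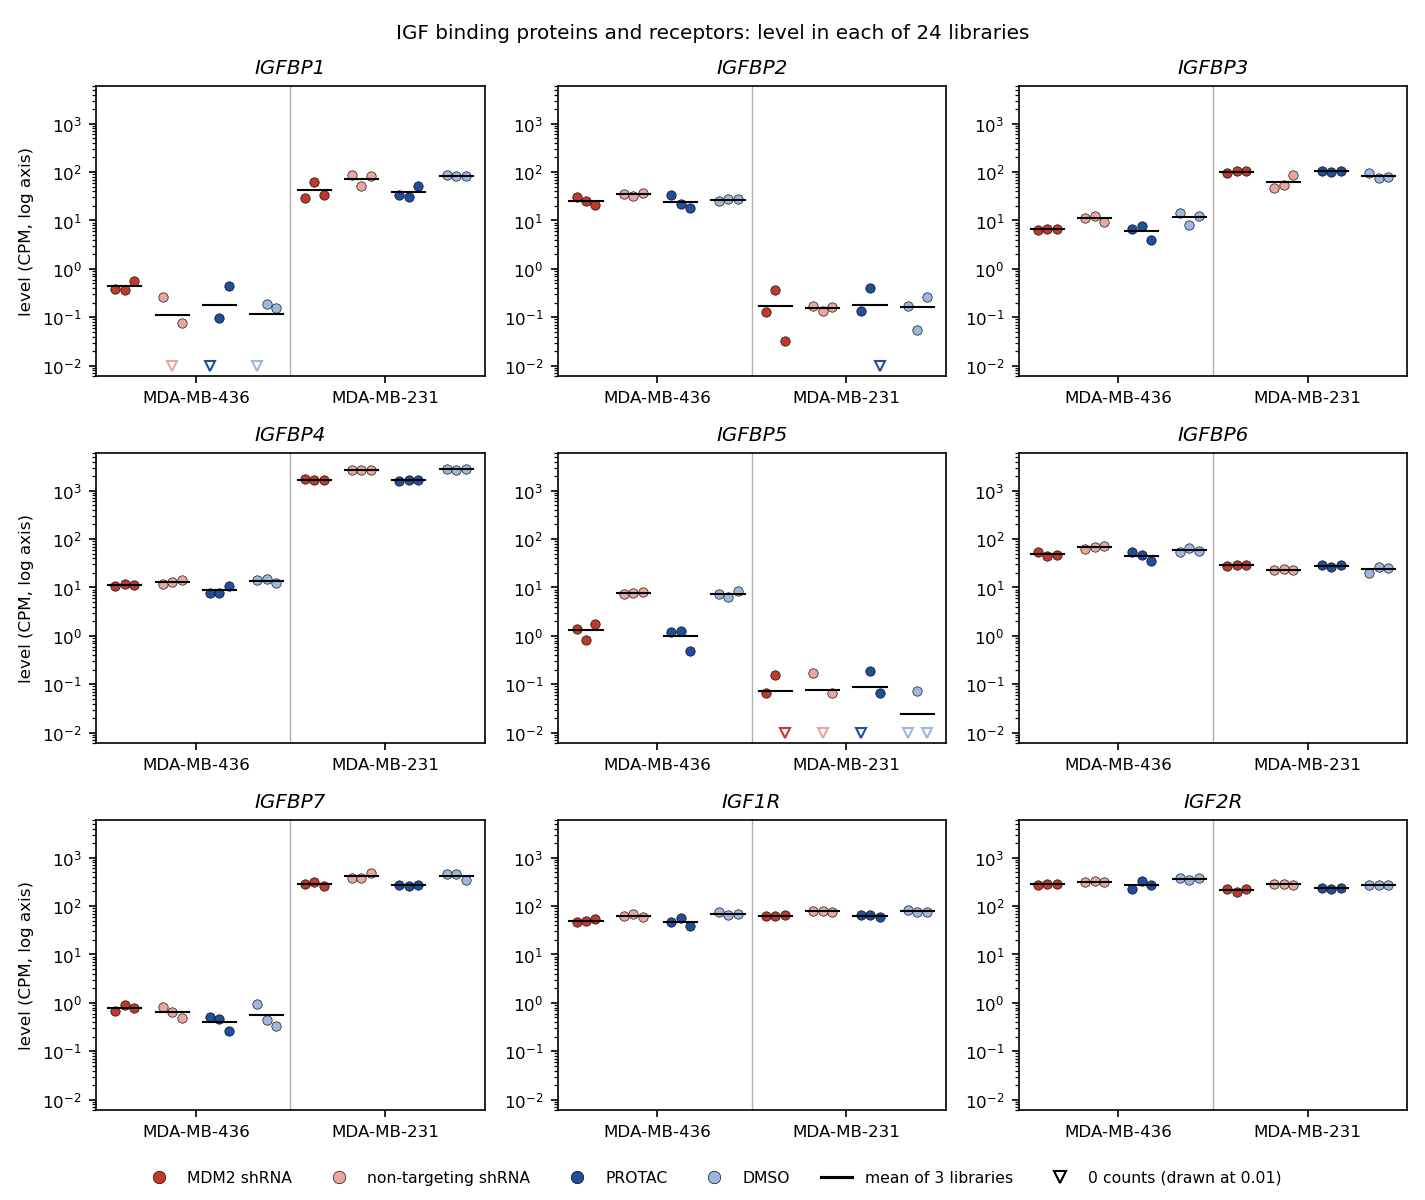
Level of each of the 9 genes in each of the 24 libraries (points, CPM on a log axis, lines at group means, n = 3, open triangles for 0 counts), with MDA-MB-436 left of MDA-MB-231 and each treated group left of its control. IGF1R and IGF2R differ by at most 0.42 log2 units between the lines' control groups, while IGFBP1, IGFBP4 and IGFBP7 lie far higher in MDA-MB-231 and IGFBP2 and IGFBP5 far higher in MDA-MB-436. IGFBP5 was chosen by its fall in MDA-MB-436, which favours a high control level there, and was not tested between the lines.

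Set against each other without treatment, 7 of the 8 tested genes differed between MDA-MB-436 and MDA-MB-231 in both pairs of control libraries, where 56.8% of all tested genes did (edgeR's quasi-likelihood test with Benjamini-Hochberg adjustment at 0.05, all 24 libraries in one model). The libraries of the lines did not overlap for 8 and 7 of the 8, as for 65.9% and 64.5% of genes. IGFBP2 averaged 34.5 ± 2.79 CPM in MDA-MB-436 and 0.156 ± 0.0169 CPM in MDA-MB-231 with non-targeting shRNA (SD, n = 3 each), a ratio of 221, and 166 among DMSO libraries. IGFBP6 was 2.88 and 2.47 times as high in MDA-MB-436. In the other direction, mean IGFBP4 was 208 and 199 times as high in MDA-MB-231, IGFBP7 629 and 751 times, and IGFBP3 5.67 and 7.25 times. IGFBP1, which the liver makes in response to fasting, had 0.112 ± 0.134 CPM in MDA-MB-436 and 72.8 ± 18.7 CPM in MDA-MB-231 with non-targeting shRNA. The receptors had smaller differences: IGF1R differed by -0.29 ± 0.095 log2 units (SE, adjusted p = 0.014) among non-targeting libraries and -0.17 ± 0.095 (0.14) among DMSO libraries, and IGF2R by 0.15 ± 0.094 (0.17) and 0.42 ± 0.094 (0.00066).

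IGFBP5, the binding protein chosen for its fall, was low in all 4 MDA-MB-436 groups and lower in the treated ones. It had 1.41, 0.810 and 1.73 CPM in libraries labelled MDM2 shRNA, against 7.32, 7.79 and 7.91 CPM with non-targeting shRNA, from 115, 52 and 107 counts against 450, 479 and 1258 counts with non-targeting shRNA. With PROTAC it had 1.23, 1.25 and 0.491 CPM, against 7.16, 6.40 and 8.56 CPM with DMSO, from 85, 152 and 19 counts against 348, 369 and 540 counts with DMSO. No treated library reached the lowest control library in either comparison. Over all tested genes, groups did not overlap, in either direction, for 51.3% with MDM2 shRNA and 41.6% with PROTAC. Group means were 5.83-fold lower with MDM2 shRNA and 7.44-fold lower with PROTAC, and the fitted differences were -2.53 and -2.88 on the log2 scale. Leaving out each library in turn gave -2.78 to -2.28 and -3.06 to -2.61, which describes the fall that chose the gene and does not test it. In MDA-MB-231 IGFBP5 did not pass the filter on low counts, with 13 counts summed over the 3 libraries labelled MDM2 shRNA against 21 over their controls, and 15 with PROTAC against 4 with DMSO. With so few counts, no change was tested there. The gene lies at chr2:216672105-216695525 on the minus strand (GRCh38, GENCODE 29), 7668 bases from IGFBP2 on the plus strand with no annotated gene between, and 298 of its exon bases lie opposite AC007563.2, whose median count was 0. Its upstream window is shown because IGFBP5 is the gene chosen for its fall and has a TATA-like motif at the usual place. The 250 bases before the RefSeq start (GRCh38.p14, chr2:216695550-216695799, minus strand, 5' to 3') are given with TATTTAA in capitals, which ends 25 bases before the start.
IGFBP5 upstream: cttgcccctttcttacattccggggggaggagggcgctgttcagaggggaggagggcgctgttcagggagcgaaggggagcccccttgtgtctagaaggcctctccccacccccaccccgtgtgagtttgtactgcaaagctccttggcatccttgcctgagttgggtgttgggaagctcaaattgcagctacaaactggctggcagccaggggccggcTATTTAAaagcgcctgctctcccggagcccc
TATTTAA was found on either strand in 4.17% of the 35116 RefSeq windows of 250 bases before a start, and at least 1 of this motif, the TATAAA of IGFBP4 and the TATATA of IGFBP3 in 15.6%.

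IGFBP2, the neighbour of IGFBP5, came with IGFBP4 next after IGFBP6 among the binding proteins of MDA-MB-436. It had 30.0, 25.0 and 20.8 CPM in libraries labelled MDM2 shRNA, against 34.4, 31.7 and 37.3 CPM with non-targeting shRNA, and the libraries did not overlap, but the difference of -0.43 ± 0.19 log2 units missed the threshold (edgeR adjusted p = 0.11) and passed it with the 6 libraries alone (-0.45, 0.036). With PROTAC it had 33.9, 21.5 and 18.2 CPM, against 25.4, 27.5 and 27.3 CPM with DMSO, with the treated libraries on both sides of the controls (-0.13 ± 0.19, adjusted p = 0.66). Without PROTAC replicate 1 the value was -0.43 with an adjusted p of 0.039. In MDA-MB-231 IGFBP2 had 31 counts over the MDM2 shRNA libraries against 36 with non-targeting shRNA, and 32 over the PROTAC libraries against 35 with DMSO.

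IGFBP4, which mainly holds IGFs away from their receptor and is the main substrate of PAPPA, fell in 3 of the 4 comparisons. In MDA-MB-231 it had 1744, 1624 and 1687 CPM in libraries labelled MDM2 shRNA, against 2658, 2689 and 2718 CPM with non-targeting shRNA. With PROTAC it had 1601, 1622 and 1685 CPM, against 2799.7, 2636 and 2797 CPM with DMSO. All treated MDA-MB-231 libraries lay below all control libraries, and the changes were -0.67 ± 0.035 log2 units (edgeR adjusted p = 3.1e-07) and -0.75 ± 0.035 (1.9e-07). In MDA-MB-436, where its level was far lower, it had 7.80, 7.80 and 10.7 CPM with PROTAC, against 14.6, 14.7 and 12.1 CPM with DMSO, and fell by 0.66 ± 0.15 (adjusted p = 0.0067). With MDM2 shRNA it had 10.9, 11.9 and 11.2 CPM, against 11.8, 12.9 and 13.9 CPM with non-targeting shRNA, with overlapping libraries and a difference of -0.17 ± 0.15 (adjusted p = 0.45) that was 0.0055 without TMM scaling. IGFBP4 lies at chr17:40443461-40457731 on the plus strand, and its upstream window is shown as that of the most abundant binding protein, to set beside IGFBP5. The 250 bases before its RefSeq start (GRCh38.p14, chr17:40443200-40443449, plus strand) hold TATAAA, in capitals, ending 24 bases before the start, a motif in 10.7% of windows.
IGFBP4 upstream: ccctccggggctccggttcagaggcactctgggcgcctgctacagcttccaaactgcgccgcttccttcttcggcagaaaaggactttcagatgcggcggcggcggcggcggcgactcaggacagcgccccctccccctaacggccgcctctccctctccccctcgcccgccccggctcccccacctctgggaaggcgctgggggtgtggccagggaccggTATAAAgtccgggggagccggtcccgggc
Both windows thus have a TATA-like motif at nearly the same distance, and IGFBP3 has TATATA 25 bases before its start (3.73% of windows).

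IGFBP3, the main carrier of IGFs in blood, changed in opposite directions in the lines. In MDA-MB-436 it had 6.48, 6.62 and 6.77 CPM in libraries labelled MDM2 shRNA, against 11.3, 12.5 and 9.45 CPM with non-targeting shRNA, and 6.68, 7.54 and 4.03 CPM with PROTAC, against 14.4, 8.10 and 12.1 CPM with DMSO. Treated libraries lay below control libraries in both, and IGFBP3 fell by 0.73 ± 0.24 log2 units (edgeR adjusted p = 0.036) and 0.93 ± 0.24 (0.010). The first of these calls was lost on leaving out any of non-targeting replicates 1 and 2 and MDM2 shRNA replicates 1, 2 and 3 (-0.75 to -0.62, adjusted p 0.082 to 0.12) and without TMM scaling (0.098). In MDA-MB-231 it had 96.5, 107 and 103 CPM with MDM2 shRNA, against 45.8, 54.3 and 88.4 CPM with non-targeting shRNA, and rose by 0.70 ± 0.19 (adjusted p = 0.024). That call was lost without non-targeting replicate 1 (0.50, 0.079) or 2 (0.59, 0.095), without MDM2 shRNA replicate 2 (0.67, 0.066) or 3 (0.69, 0.061), and with the 6 libraries alone (0.69, 0.082). With PROTAC the MDA-MB-231 libraries had 105, 98.5 and 107 CPM, against 96.8, 76.9 and 77.7 CPM with DMSO, all above the controls by a difference that missed the threshold (0.31 ± 0.19, adjusted p = 0.31). The change in MDA-MB-436 minus that in MDA-MB-231 was -1.44 ± 0.32 for MDM2 shRNA (adjusted p = 0.0027) and -1.22 ± 0.32 for PROTAC (0.0087), in the model of all 24 libraries.

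IGFBP1 lies 18576 bases from IGFBP3 on chromosome 7, on the other strand and with no annotated gene between. In MDA-MB-231 it had 32.9, 30.1 and 51.1 CPM with PROTAC, against 85.3, 81.5 and 83.1 CPM with DMSO, and fell by 1.13 ± 0.29 log2 units (edgeR adjusted p = 0.017). The call was lost without PROTAC replicate 1 (-1.04, 0.066) or 2 (-0.99, 0.069) and with all 24 libraries in one fit (-1.13, 0.11). With MDM2 shRNA it had 29.5, 61.9 and 33.5 CPM, against 85.3, 51.3 and 81.8 CPM with non-targeting shRNA. The groups overlapped, and the difference of -0.81 ± 0.29 missed the threshold (adjusted p = 0.073), though it passed without MDM2 shRNA replicate 2 (-1.21, 0.0086) or non-targeting replicate 2 (-1.02, 0.039), and with limma voom (-0.87, 0.040) or DESeq2 (-0.81, 0.016). In MDA-MB-436 the gene was near 0, with 31, 23 and 35 counts in MDM2 shRNA libraries against 16, 0 and 12 with non-targeting shRNA, and 0, 12 and 17 counts with PROTAC against 0, 11 and 10 with DMSO, and neither change was called (edgeR adjusted p = 0.35 and 0.82). The shRNA change in MDA-MB-436 minus that in MDA-MB-231 passed the test (2.86 ± 0.89, adjusted p = 0.028), but not on leaving out any 1 of 7 libraries: non-targeting replicates 1 and 3 and MDM2 shRNA replicates 1 and 3 of MDA-MB-231, and non-targeting replicates 2 and 3 and MDM2 shRNA replicate 3 of MDA-MB-436 (2.44 to 2.78, adjusted p 0.050 to 0.11). It was not called by limma voom (0.19) or DESeq2 (0.096) either.

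IGFBP6, which prefers IGF2 over IGF1, was the most abundant binding protein of MDA-MB-436 and fell there. It had 53.9, 45.4 and 48.0 CPM in libraries labelled MDM2 shRNA, against 62.7, 67.4 and 72.1 CPM with non-targeting shRNA, and 53.5, 47.5 and 34.4 CPM with PROTAC, against 53.6, 64.7 and 56.5 CPM with DMSO. The falls were 0.44 ± 0.13 (edgeR adjusted p = 0.022) and 0.38 ± 0.13 log2 units (0.043), with the highest PROTAC library just under the lowest DMSO library. Both calls depended on single libraries: the shRNA call was lost without non-targeting replicate 2 or 3 or MDM2 shRNA replicate 2 or 3 (-0.44 to -0.39, adjusted p 0.064 to 0.088), and the PROTAC call without DMSO replicate 1, 2 or 3 or PROTAC replicate 2 or 3 (-0.42 to -0.25, 0.060 to 0.18). Without TMM scaling the differences were -0.26 (0.15) and -0.21 (0.23), and the PROTAC call was also lost without the filter (0.084) and with the 6 libraries alone (0.13). In MDA-MB-231 IGFBP6 had 28.4, 28.9 and 28.6 CPM with MDM2 shRNA, against 22.8, 24.1 and 23.4 CPM with non-targeting shRNA, and 29.2, 26.9 and 28.8 CPM with PROTAC, against 19.6, 26.1 and 25.1 CPM with DMSO. The treated libraries were the higher ones in both, by 0.29 ± 0.096 (adjusted p = 0.053) and 0.26 ± 0.096 (0.080), which missed the threshold. The MDM2 shRNA difference passed it without TMM scaling (0.39, 0.013), with a filter of 1 CPM (0.040), limma voom (0.040) or DESeq2 (0.027), and with the 6 libraries alone (0.024). The PROTAC difference passed without TMM scaling (0.34, 0.026), with DESeq2 (0.042) and without DMSO replicate 2 (0.32, 0.048). The change in MDA-MB-436 minus that in MDA-MB-231 was -0.75 ± 0.18 for MDM2 shRNA (adjusted p = 0.0050) and -0.63 ± 0.18 for PROTAC (0.015).

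IGFBP7, a secreted matrix-associated relative of the family, fell in MDA-MB-231. It had 279.5, 319 and 266 CPM in libraries labelled MDM2 shRNA, against 381, 379 and 479 CPM with non-targeting shRNA, and 268, 259 and 272 CPM with PROTAC, against 459, 458 and 354 CPM with DMSO. The groups did not overlap, and the changes were -0.52 ± 0.12 (edgeR adjusted p = 0.0079) and -0.67 ± 0.12 log2 units (0.0017). The first was not called with all 24 libraries in one fit (-0.52, 0.075). IGFBP7 shares 270 exon bases with POLR2B on the other strand, a gene with a median of 18590.5 counts, and the strand of counting is not given, so reads of that stretch cannot be told apart. In MDA-MB-436 IGFBP7 had 0.258 to 0.926 CPM, with overlapping groups in both comparisons.

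IGF1R was the one member called lower in all 4 comparisons. In MDA-MB-231 it had 61.9, 61.0 and 64.6 CPM in libraries labelled MDM2 shRNA, against 79.4, 78.6 and 74.4 CPM with non-targeting shRNA, and 65.1, 64.0 and 60.4 CPM with PROTAC, against 83.3, 75.1 and 76.2 CPM with DMSO. In MDA-MB-436 it had 46.4, 49.7 and 53.6 CPM with MDM2 shRNA, against 62.3, 67.4 and 60.5 CPM with non-targeting shRNA, and 46.2, 56.5 and 39.7 CPM with PROTAC, against 75.2, 64.3 and 69.3 CPM with DMSO. In each of the 4 comparisons the highest treated library was below the lowest control library. The changes were -0.31 ± 0.054 log2 units for both treatments of MDA-MB-231 (edgeR adjusted p = 0.0019 and 0.0017), and -0.33 ± 0.11 (0.044) and -0.56 ± 0.11 (0.0024) for MDM2 shRNA and PROTAC in MDA-MB-436, or folds of 0.807, 0.806, 0.796 and 0.677. The MDA-MB-436 shRNA call was lost without non-targeting replicate 1, 2 or 3 or MDM2 shRNA replicate 1 or 2 (-0.37 to -0.28, adjusted p 0.051 to 0.14) and without TMM scaling (-0.15, 0.33). The change in MDA-MB-436 minus that in MDA-MB-231 was not called for MDM2 shRNA (-0.036 ± 0.13, adjusted p = 0.96) or PROTAC (-0.24 ± 0.14, 0.23), though the PROTAC difference passed without MDA-MB-436 PROTAC replicate 2 (-0.39, 0.017).

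IGF2R, the largest contributor of counts among the 9 genes in MDA-MB-436, fell in 3 of the 4 comparisons. In MDA-MB-231 it had 223, 196 and 224 CPM in libraries labelled MDM2 shRNA, against 287, 290.1 and 276 CPM with non-targeting shRNA, and 234, 228 and 232 CPM with PROTAC, against 279, 275 and 267 CPM with DMSO. The groups were apart, and the changes were -0.41 ± 0.050 (edgeR adjusted p = 0.00016) and -0.24 ± 0.050 log2 units (0.0048), of which the second was not called with all 24 libraries in one fit (-0.24, 0.099). In MDA-MB-436 it had 221, 333 and 273 CPM with PROTAC, against 376, 341 and 383 CPM with DMSO, with treated libraries spread widely below the controls. That fall of 0.42 ± 0.11 (adjusted p = 0.016) was lost without DMSO replicate 1 (-0.39, 0.052) or 3 (-0.37, 0.059), with the 6 libraries alone (-0.40, 0.076) and without TMM scaling (-0.25, 0.11). With MDM2 shRNA it had 271, 287 and 290.0 CPM, against 308, 324 and 317 CPM with non-targeting shRNA, lower in every treated library by a difference that missed the threshold (-0.15 ± 0.11, adjusted p = 0.39), was 0.032 without TMM scaling and passed with the 6 libraries alone (-0.16, 0.023). Between lines the PROTAC change was not called (-0.17 ± 0.13, 0.43), but passed without MDA-MB-436 PROTAC replicate 2 (-0.33, 0.023).

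The upstream windows of both receptors are shown because both genes were expressed in both lines, with the line differences given above. Neither holds any of the TATA-like motifs above on either strand. IGF1R spans chr15:98648539-98964530 and IGF2R chr6:159969099-160113507, both on the plus strand of GRCh38, and no exon base of either is shared with another annotated gene. The 250 bases before the IGF1R start (GRCh38.p14, chr15:98648289-98648538) have GGGCGG, a GC box, in capitals, 2 times, ending 200 and 187 bases before the start.
IGF1R upstream: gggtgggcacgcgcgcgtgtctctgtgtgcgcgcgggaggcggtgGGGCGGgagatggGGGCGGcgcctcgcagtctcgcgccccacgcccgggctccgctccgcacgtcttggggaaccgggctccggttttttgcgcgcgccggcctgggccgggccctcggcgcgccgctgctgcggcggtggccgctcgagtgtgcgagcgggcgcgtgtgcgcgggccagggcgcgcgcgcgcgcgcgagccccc
The 250 bases before the IGF2R start (chr6:159968832-159969081) have the palindrome CACGTG, an E-box, in capitals, 3 times, ending 127, 69 and 23 bases before the start, and GGGCGG, left in lower case, 6 times, ending 162, 100, 96, 57, 43 and 33 bases before it (the first on the other strand).
IGF2R upstream: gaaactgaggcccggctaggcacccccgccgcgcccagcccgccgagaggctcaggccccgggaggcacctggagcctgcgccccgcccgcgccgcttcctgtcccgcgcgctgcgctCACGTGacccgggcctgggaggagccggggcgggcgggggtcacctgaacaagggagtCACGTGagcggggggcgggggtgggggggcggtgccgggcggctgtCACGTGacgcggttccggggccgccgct
The IGFBP4 window above has 1 GGGCGG and the IGFBP5 window 0. GGGCGG was present in 42.6% of all windows and at least 2 times in 24.3%. CACGTG was present in 6.34% and at least 3 times in 28 windows, or 0.0797%.

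Counted over the family, with IGFBP5 not tested in either line, 5 of 8 tested members were called in MDA-MB-231 with MDM2 shRNA (1 rose and 4 fell), where 22.7% of all genes tested were called. With PROTAC 5 of 8 fell in MDA-MB-231, against 22.6% of genes called, of which 11.5% lower. In MDA-MB-436, 3 of 8 fell with MDM2 shRNA, where 30.4% of genes were called and 14.4% lower, and 5 of 8 fell with PROTAC, where 32.4% were called and 15.1% lower. The median log2 change of the tested members was -0.36 and -0.28 in MDA-MB-231 with MDM2 shRNA and PROTAC, beside 0.01 and -0.01 over all genes, and -0.25 and -0.43 in MDA-MB-436, beside 0.04 and 0.04. Libraries of the groups compared did not overlap for 6 and 7 of the 8 tested members in MDA-MB-231 with MDM2 shRNA and PROTAC, as for 39.0% and 39.1% of genes, and for 6 and 5 of 8 in MDA-MB-436, as for 51.3% and 41.6%. Without TMM the median of all genes shifted by 0.10, 0.083, 0.18 and 0.17 log2 units in the same order, and the share of called genes that were higher was 68.0%, 65.6%, 72.8% and 70.9%, beside 48.8%, 49.1%, 52.5% and 53.4% with TMM. Without TMM, 0 of 8 members were called with MDM2 shRNA in MDA-MB-436 and 3 of 8 with PROTAC.

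**Figure D3:**
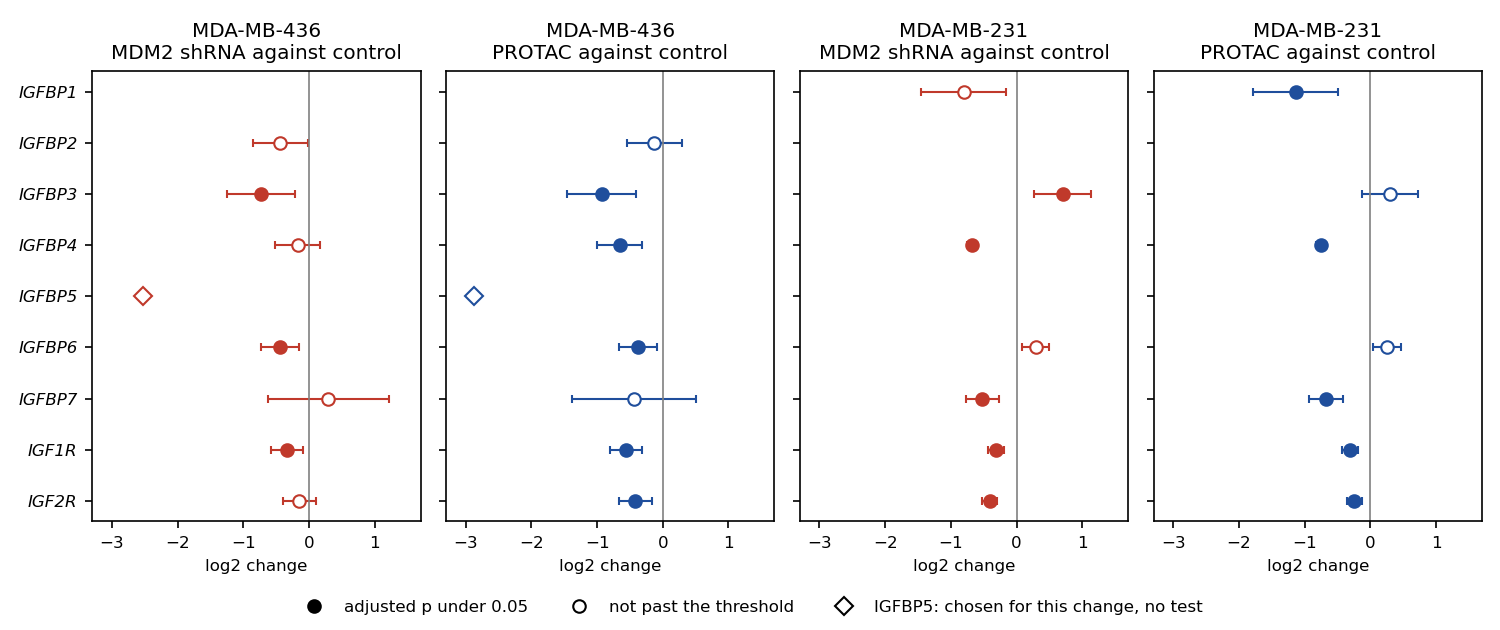
Log2 change of each gene with MDM2 shRNA or PROTAC against its own control (points, log2 scale, bars of the 95% interval from the edgeR fit), in 4 panels. Filled points passed the adjusted threshold of 0.05, the diamonds mark IGFBP5 in MDA-MB-436, which has no test, and genes near 0 counts in a line are left blank. IGF1R lies below 0 in all 4 comparisons, and IGFBP3 lies below 0 in MDA-MB-436 and above it in MDA-MB-231.

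The agents had separate control libraries, so their effects could be set against each other within a line. For PROTAC minus MDM2 shRNA, 0 of the 8 tested members were called in either line by edgeR, where 0.00484% of genes were called for MDA-MB-231 and 0.00441% for MDA-MB-436, and limma voom and DESeq2 also called 0. At an unadjusted p under 0.05 there was 1 member in each line, IGF2R for MDA-MB-231 and IGFBP4 for MDA-MB-436. The members called under 1 agent alone had wide intervals for this difference: -1.23 to 0.58 log2 units for IGFBP1 and -0.9997 to 0.21 for IGFBP3 in MDA-MB-231, and -0.96 to -0.0048 for IGFBP4 and -0.63 to 0.087 for IGF2R in MDA-MB-436 (95%).

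Between lines, 4 of 8 tested members differed in their MDM2 shRNA change (IGFBP1, IGFBP3, IGFBP4 and IGFBP6), where 19.7% of genes did (9.94% higher and 9.77% lower), and 2 of 8 in their PROTAC change (IGFBP3 and IGFBP6), where 22.3% did (11.8% higher and 10.5% lower). For all genes the called differences were split 50.4% higher in the MDM2 shRNA comparison, and 61.6% without TMM scaling. IGFBP4 fell less in MDA-MB-436 than in MDA-MB-231 with MDM2 shRNA (0.48 ± 0.13, edgeR adjusted p = 0.012), and with PROTAC the difference was not called (0.08 ± 0.13, 0.76).

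The proteases that cut binding proteins, and their inhibitors, numbered 14, of which 10 were tested for MDA-MB-231 and 12 for MDA-MB-436. With MDM2 shRNA 2 rose and 6 fell in MDA-MB-231, and with PROTAC 2 rose and 5 fell, while 3 rose and 5 fell with each agent in MDA-MB-436. Of all genes, 22.7% and 22.6% were called in MDA-MB-231 and 30.4% and 32.4% in MDA-MB-436. The median change of the list was -0.45 and -0.42 in MDA-MB-231 and -0.39 and -0.31 log2 units in MDA-MB-436, beside 0.01, -0.01, 0.04 and 0.04 over all genes. PAPPA, the protease of IGFBP4 and IGFBP5, had 6.92, 8.30 and 9.83 CPM in MDA-MB-231 libraries labelled MDM2 shRNA, against 28.6, 26.4 and 24.7 CPM with non-targeting shRNA, and 8.59, 8.45 and 8.96 CPM with PROTAC, against 26.5, 25.8 and 27.5 CPM with DMSO. In MDA-MB-436 it had 3.36, 5.36 and 5.22 CPM in libraries labelled MDM2 shRNA, against 2.33, 2.52 and 1.49 CPM with non-targeting shRNA, and 3.85, 4.41 and 5.45 CPM with PROTAC, against 2.33, 2.15 and 2.31 CPM with DMSO. The groups were apart in all 4 comparisons, and the gene fell in MDA-MB-231 (-1.67 ± 0.12, edgeR adjusted p = 2.4e-06, and -1.62 ± 0.12, 3.2e-06) and rose in MDA-MB-436 (1.16 ± 0.26, 0.0050, and 1.01 ± 0.26, 0.010). STC1, an inhibitor of PAPPA, went the other way in each line. It had 73.3, 69.7 and 75.0 CPM in MDA-MB-231 libraries labelled MDM2 shRNA, against 43.8, 43.8 and 42.7 CPM with non-targeting shRNA, and 22.5, 24.7 and 20.1 CPM in MDA-MB-436, against 40.9, 38.02 and 41.5 CPM with non-targeting shRNA. Its changes were 0.74 ± 0.049 and 0.86 ± 0.049 in MDA-MB-231 with MDM2 shRNA and PROTAC, and -0.82 ± 0.092 and -0.85 ± 0.093 in MDA-MB-436, all called. STC2, the other inhibitor, was abundant in MDA-MB-436 alone (means of 171 and 153 CPM with MDM2 shRNA and PROTAC, 113 and 114 CPM in the controls) and rose there by 0.61 ± 0.090 and 0.42 ± 0.089 (the PROTAC call was lost with all 24 libraries in one fit, adjusted p = 0.12). In MDA-MB-231 it stayed at or under 1.29 CPM and was not called, though its MDM2 shRNA difference passed with all 24 libraries in one fit (0.95, edgeR adjusted p = 0.020).

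Among the other proteases, HTRA1, which can cut IGFBP5, fell in all 4 comparisons (-0.87 and -0.88 in MDA-MB-231 with MDM2 shRNA and PROTAC, -1.06 and -0.99 in MDA-MB-436), as did PLAU, the urokinase that activates plasmin (-1.11, -1.13, -0.67 and -0.70). ADAM12, a protease of IGFBP3 and IGFBP5, fell in MDA-MB-436 (-1.01 ± 0.15 and -1.41 ± 0.15), and had 0 counts over the 3 MDM2 shRNA libraries of MDA-MB-231 against 100 in the controls, and 8 with PROTAC against 90.

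Of the ligands, IGF1 had at most 4 counts over the libraries of any group and INS had 0, which leaves IGF2. IGF2 was low in all groups. In MDA-MB-231 it had 2.96, 2.73 and 2.99 CPM in libraries labelled MDM2 shRNA, against 0.994, 1.28 and 0.875 CPM with non-targeting shRNA, and 0.353, 2.43 and 2.31 CPM with PROTAC, against 1.27, 1.23 and 0.612 CPM with DMSO. The MDM2 shRNA libraries lay above their controls by 1.46 ± 0.54 log2 units, which missed the threshold (edgeR adjusted p = 0.080) but passed with DESeq2 (0.029) or the 6 libraries alone (1.45, 0.0034), and the PROTAC difference (0.71 ± 0.54, 0.42) passed without PROTAC replicate 1 (1.19, 0.018). IGF2 had 0.611, 0.795 and 0.5995 CPM in MDA-MB-436 libraries labelled MDM2 shRNA, against 0.146, 0.342 and 0.283 CPM with non-targeting shRNA, and 0.289, 0.848 and 0.853 CPM with PROTAC, against 0.185, 0 and 0.111 CPM with DMSO. All treated MDA-MB-436 libraries lay above their controls, and the PROTAC difference was called (2.75 ± 0.82, edgeR adjusted p = 0.023), though not without DMSO replicate 3 (2.88, 0.061) or PROTAC replicate 2 (2.53, 0.064), nor with the 6 libraries alone (2.76, 0.091). The MDM2 shRNA difference there was 1.39 ± 0.74 (0.19), and passed with the 6 libraries alone (1.37, 0.028). IGF2 shares 1460 exon bases with INS-IGF2, a read-through gene, and their reads cannot be told apart there. INSR, the insulin receptor and partner of IGF1R in hybrid receptors, was called in none of the 4 comparisons by edgeR (adjusted p 0.054 to 0.44). In MDA-MB-231 its PROTAC difference passed with a filter of 1 CPM (-0.63, 0.042), DESeq2 (-0.62, 0.015) or a replicate block (-0.65, 0.040). It also passed with the 6 libraries alone (-0.62, 0.040) and without PROTAC replicate 1 (-0.76, 0.048). The MDM2 shRNA difference there passed without non-targeting replicate 2 (-0.54, 0.048), and that in MDA-MB-436 on leaving out 1 of 6 libraries.

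The adaptors showed a contrast between IRS1 and IRS2, which link IGF1R to PI3K. In MDA-MB-436 IRS1 had 35.4, 38.6 and 33.7 CPM in libraries labelled MDM2 shRNA, against 66.1, 71.7 and 73.0 CPM with non-targeting shRNA, and 30.5, 41.0 and 33.2 CPM with PROTAC, against 79.7, 67.8 and 83.4 CPM with DMSO. IRS2, which FOXO factors switch on when AKT is inactive, had 32.3, 30.7 and 29.6 CPM there with MDM2 shRNA, against 17.7, 17.4 and 16.3 CPM with non-targeting shRNA, and 32.6, 34.2 and 34.1 CPM with PROTAC, against 15.5, 14.8 and 16.1 CPM with DMSO. IRS1 thus fell by 0.95 ± 0.11 and 1.15 ± 0.11 and IRS2 rose by 0.86 ± 0.084 and 1.12 ± 0.085 log2 units, with no overlap between groups. In MDA-MB-231 IRS1 fell by 0.16 ± 0.041 and 0.15 ± 0.041 and IRS2 by 0.17 ± 0.055 and 0.31 ± 0.055. Of these small falls, that of IRS2 with PROTAC held on leaving out each library. The call of IRS1 with MDM2 shRNA was lost without non-targeting replicate 1 or 2 or MDM2 shRNA replicate 1, that of IRS1 with PROTAC without DMSO replicate 1 or PROTAC replicate 1 or 2, and that of IRS2 with MDM2 shRNA without any one library other than MDM2 shRNA replicate 2. All 3 of these calls were also lost without TMM scaling (-0.055, -0.070 and -0.071, edgeR adjusted p = 0.39, 0.27 and 0.42). The IRS1 and IRS2 calls with MDM2 shRNA were lost with the 6 libraries alone (0.054 and 0.078) and with all 24 in one fit (0.30 and 0.073). That of IRS2 was lost without the filter as well (0.089). SHC1, another adaptor, rose in MDA-MB-231 (0.47 and 0.44) and fell in MDA-MB-436 (-0.81 and -0.89). In the annotation 335 of its exon bases are shared with PYGO2, which bears on both lines. Over the list of adaptors and PI3K-AKT genes, 4 rose and 6 fell of 26 in MDA-MB-231 with MDM2 shRNA, 5 and 6 of 26 with PROTAC, 4 and 7 of 27 in MDA-MB-436 with MDM2 shRNA, and 3 and 10 of 27 with PROTAC, shares of 38.5%, 42.3%, 40.7% and 48.1%, beside 22.7%, 22.6%, 30.4% and 32.4% of all genes. Its median changes were -0.10, -0.05, -0.19 and -0.25 log2 units. GRB10, an inhibitory adaptor of IGF1R, fell in MDA-MB-231 (-0.85 ± 0.11 and -0.84 ± 0.11).

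**Figure D4:**
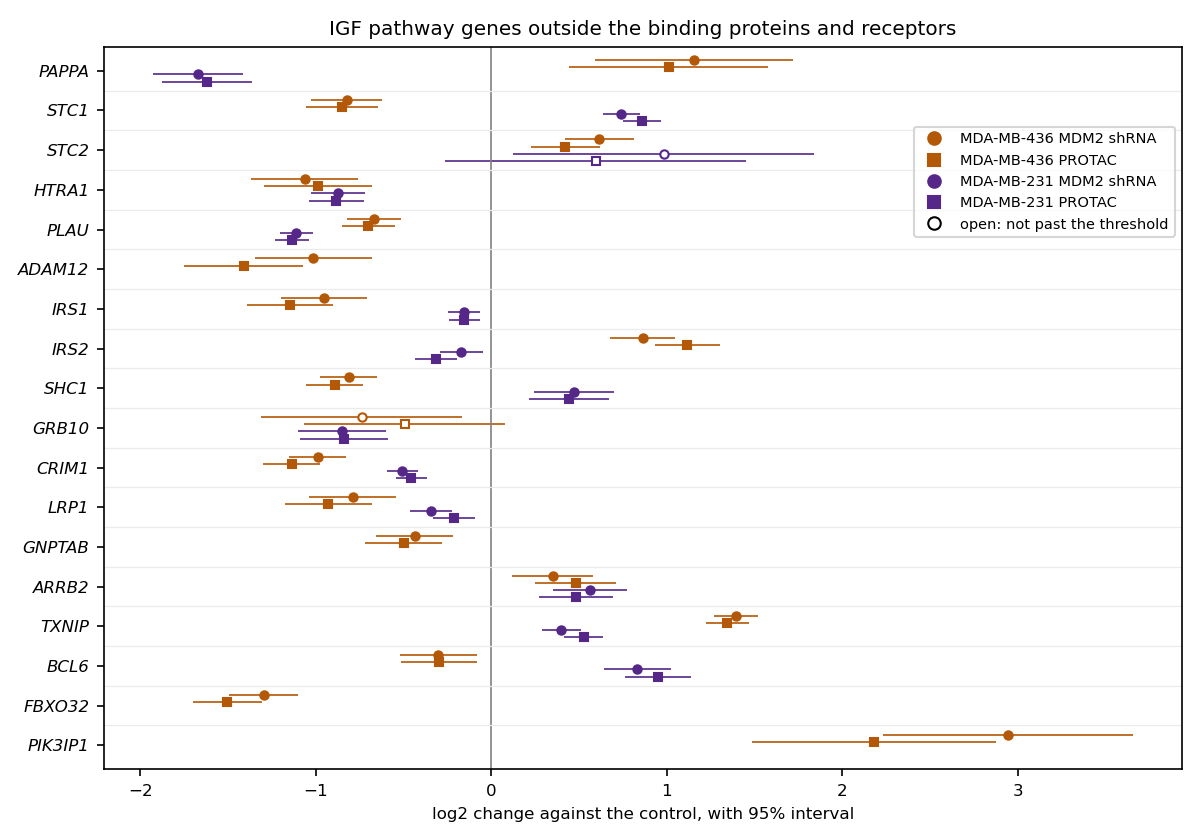
Log2 change with MDM2 shRNA or PROTAC against its own control for named genes around the IGF receptors (points, bars of the 95% interval from the edgeR fit), with filled points past the adjusted threshold of 0.05 and ADAM12, GNPTAB, FBXO32 and PIK3IP1 drawn for MDA-MB-436 alone. PAPPA, STC1, IRS2, SHC1 and BCL6 lie on opposite sides of 0 in the lines. HTRA1, PLAU, IRS1, GRB10, CRIM1 and LRP1 lie below 0 in all 4 comparisons, and STC2, ARRB2 and TXNIP above it. The MDA-MB-436 calls of BCL6 were lost on leaving out single libraries.

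Genes that FOXO factors raise, and that insulin or IGF signalling therefore holds down, were called in both directions: 4 rose and 1 fell of 13 in MDA-MB-231 with MDM2 shRNA, 5 and 1 of 13 with PROTAC, 5 and 2 of 12 in MDA-MB-436 with MDM2 shRNA, and 4 and 2 of 12 with PROTAC. Of all genes 11.1%, 11.1%, 16.0% and 17.3% were called higher and 11.6%, 11.5%, 14.4% and 15.1% lower in these comparisons, and the median changes of the list were 0.16, 0.14, 0.49 and 0.04. TXNIP, an inhibitor of glucose uptake, rose in all 4 (0.40, 0.53, 1.40 and 1.35). PIK3IP1, an inhibitor of PI3K, rose in MDA-MB-436 (2.95 ± 0.32 and 2.18 ± 0.32). Not all listed genes went that way, since FBXO32, a ubiquitin ligase subunit of muscle wasting, fell in MDA-MB-436 (-1.30 ± 0.089 and -1.50 ± 0.090), and BCL6, a repressor of transcription, rose in MDA-MB-231 (0.83 and 0.95) and was -0.30 in both MDA-MB-436 comparisons. The MDA-MB-436 BCL6 calls were lost on leaving out any of the 6 libraries with MDM2 shRNA, and any but PROTAC replicate 3 with PROTAC (adjusted p up to 0.14 and 0.13).

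Partners and relatives of the binding proteins, 13 genes of which 10 were tested in MDA-MB-231, had 3 that rose and 3 that fell with each agent there, and 1 that rose and 4 that fell of 13 in MDA-MB-436 with each agent, beside the shares of all genes called of 22.7%, 22.6%, 30.4% and 32.4%. CRIM1, a membrane protein with an IGF-binding domain, fell in all 4 comparisons (-0.51, -0.46, -0.99 and -1.14). CCN2, a matricellular relative, was also called lower in all 4, by -0.85 and -0.76 in MDA-MB-436. LRP1, which binds IGFBP3 at the cell surface, fell in all 4 (-0.34, -0.21, -0.79 and -0.93), with the MDA-MB-231 PROTAC call lost without PROTAC replicate 1 (-0.20, 0.058) or 3 (-0.19, 0.056), without TMM scaling (-0.13, 0.12) and with all 24 libraries in one fit (0.14). ESM1, CCN3 and IGFBPL1 rose in MDA-MB-231 with both agents, by 0.66 to 1.44, though IGFBPL1 was not called with all 24 libraries in one fit (0.059 and 0.15).

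Of the 4 genes for mannose 6-phosphate sorting, the other duty of IGF2R, 0, 1, 1 and 2 were called, all lower, with MDM2 shRNA and PROTAC in MDA-MB-231 and then in MDA-MB-436. Beside these counts and those of the next list, 22.7%, 22.6%, 30.4% and 32.4% of all genes were called. M6PR, the cation-dependent receptor, was not called in any comparison (adjusted p 0.17 to 0.86). GNPTAB, which makes the mannose 6-phosphate mark, fell in MDA-MB-436 (-0.44 ± 0.10 and -0.50 ± 0.10), the MDM2 shRNA call being lost without TMM scaling (-0.26, 0.075). Among 7 genes for ubiquitination and turnover of IGF1R, MDM2 included, 3 rose in MDA-MB-231 with each agent, and 2 rose in MDA-MB-436 with each agent, with 1 that fell with PROTAC. ARRB2, a beta-arrestin, was called higher in all 4 comparisons (0.56, 0.48, 0.35 and 0.48), and the MDA-MB-436 shRNA call was lost without non-targeting replicate 1 or 2 or MDM2 shRNA replicate 1 or 3 (0.29 to 0.37, adjusted p 0.059 to 0.12).

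The genes whose pattern was most like that of IGFBP5 over the 12 MDA-MB-436 libraries, among 15040 genes that averaged 1 CPM or more, were NFIB, TNFAIP8L1, SOX9, EXT1 and GALNT2 (Pearson's r of 0.99 on log2 CPM with 0.5 added). SOX9, a transcription factor of progenitor cells, averaged 23.2 and 22.3 CPM with MDM2 shRNA and PROTAC, against 49.9 and 48.4 CPM with non-targeting shRNA and DMSO. The most opposite were SLF1, FAM161A, LINC01239, HSPBAP1 and PPIL4 (r of -0.99). These libraries fall into treated and control ones, so any gene with a large change of like size over both agents comes high in such a ranking. For IGF1R the closest were ANXA6, CNTNAP3 and ARSB in MDA-MB-231 (0.98, 0.98 and 0.975, 14385 genes) and SOCS7, MPRIP and SPTLC2 in MDA-MB-436 (0.97 each), over 12 libraries each.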

How the data were processed

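Total RNA was extracted with TRIzol, made into libraries with NEBNext Ultra II and sequenced on an Illumina HiSeq, per the labels' protocols. The authors deposited 1 table of raw counts per gene for each of 24 libraries. cutadapt 2.4, HISAT2, StringTie, edgeR and the build GRCh38 are named in the submitters' processing notes, without their roles. The strand of counting is not given in the sources used here. Values pile up at a count of 4 (1.20 to 1.64 times the mean of the neighbouring values).

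From these counts, genes kept by edgeR's expression filter (20675 for MDA-MB-231, 22663 for MDA-MB-436, 24719 over both) were scaled by TMM and tested with edgeR 4.0.16 (R 4.3.3), with the quasi-likelihood test and Benjamini-Hochberg adjustment over all genes at 0.05. The 12 libraries of a line entered one fit, and all 24 the comparisons between lines. All p-values are from that model unless an alternative is named, with n = 3 libraries a group. MDA-MB-436 PROTAC replicates differed most, with median chi-squares between libraries of 11.6, 21.0 and 16.6, against 3.89 to 6.83 in other groups. The fit pools this spread over groups, so p-values for MDA-MB-436 PROTAC may be too low. With the 6 libraries alone, the MDA-MB-436 PROTAC calls went from 3916 higher and 3418 lower to 2980 and 2404. Those of MDA-MB-436 MDM2 shRNA went from 3622 and 3274 to 4409 and 4306. The scripts were tested on simulated data with 200 changed genes. Levels were divided by merged exon length in GENCODE 29 (57055 of 60675 IDs matched), and upstream sequences are from RefSeq (GRCh38.p14), which matched 7 members; IGFBP1 and IGFBP7 are named only. Motifs were searched on both strands of windows of 250 bases. Libraries held 33.4 M to 174.7 M counts.

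The members and gene lists were chosen with earlier results of these data known. Always named were the 9 members, MDM2, IGF1, IGF2, INSR, IRS1, IRS2, PAPPA, STC1 and STC2. From each list and comparison up to 3 called genes were named, those with the largest absolute change that averaged 1 CPM or more and whose groups did not overlap. Other named genes were chosen after their values were seen. Patterns were ranked by Pearson's r of log2(CPM + 0.5).

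Alternatives were DESeq2 size factors (RLE), no scaling, no filter, a filter of 1 CPM in 3 libraries, limma voom (limma 3.58.1), DESeq2 1.42.0, a replicate block, the 6 libraries of a comparison alone, all 24 in one fit, and leaving out each library.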

Additional observations from a re-analysis of the deposited data

Results flagged for a closer look

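Among the tested members with IRS1, IRS2, PAPPA and STC1, the changes of 8 genes differed between the lines under the same treatment. Each was called by a test of the difference itself (the interaction term of edgeR's quasi-likelihood fit to all 24 libraries, Benjamini-Hochberg adjusted). Other named genes were called by the same test with both agents and are not listed here, among them SHC1, PLAU, CRIM1, LRP1, CCN2, TXNIP, BCL6, FBXO32 and PIK3IP1. Values are the log2 change in MDA-MB-436 minus that in MDA-MB-231.

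Among the binding proteins, the MDM2 shRNA difference was 2.86 for IGFBP1, a gene near 0 counts in MDA-MB-436, -1.44 for IGFBP3, 0.48 for IGFBP4 and -0.75 for IGFBP6. The PROTAC difference was -1.22 for IGFBP3 and -0.63 for IGFBP6.

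For the protease PAPPA the difference was 2.82 with MDM2 shRNA and 2.63 with PROTAC, and for its inhibitor STC1 -1.58 and -1.71. For the adaptors it was -0.81 and -0.99 for IRS1, and 1.02 and 1.43 for IRS2, in the same order of treatments (adjusted p at most 8.1e-05 for PAPPA, STC1, IRS1 and IRS2).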

How the results depend on the processing

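Values of single genes and numbers of all genes called were pooled over the alternatives. Of these, 2648 kept their direction and side of the threshold, or for numbers called stayed within 1.5 times. A call was lost for 141 and gained for 43, while 67 moved and 15 changed sign. Of the counts of members called and orders of levels, 147 stayed the same or within 1.5 times and 16 moved.

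The number of tested members called (main 5) was 3 in MDA-MB-231 PROTAC with all 24 libraries in one fit. In MDA-MB-436 MDM2 shRNA (main 3) it was 0 without scaling, 1 with the replicate block, 5 with the 6 libraries alone and 0 to 1 on leaving out each library. In MDA-MB-436 PROTAC (main 5) it was 3 without scaling, 3 with the 6 libraries alone and 3 to 6 on leaving out each library. For the PROTAC difference between lines (main 2) it was 2 to 4. The order of levels per length was kept in 5 of 8 groups with the longest transcript's length.

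Signs changed without scaling in MDA-MB-436 for IGFBP4 (0.0055), IGF2R (0.032) and MDM2 (0.072) with MDM2 shRNA, for IGFBP2 with PROTAC (0.036), and for the MDM2 shRNA line difference of IGF1R (0.058, and 0.018 without the filter). On leaving out each library in turn, values ran from -0.27 to 0.13 for MDM2 with MDM2 shRNA, -0.43 to 0.015 for IGFBP2 and -0.70 to 0.12 for IGFBP7 with PROTAC in MDA-MB-436. They ran from -0.091 to 0.016 for the IGF1R shRNA line difference, -0.074 to 0.16 for the IGFBP4 PROTAC line difference, and -0.60 to 0.075 for IGFBP1 PROTAC minus shRNA in MDA-MB-231. The cause was not tested.

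Same-numbered libraries deviated from their group means with correlations of -0.063 to 0.081, and other-numbered ones with -0.147 to 0.0996. A check on so few libraries cannot show whether the numbers pair the samples. With 3 libraries a group and few counts, changes of IGFBP2 and IGFBP5 in MDA-MB-231 were not detectable at this depth, and those of IGFBP1 in MDA-MB-436, on which its line difference rests, come from at most 35 counts a library.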
